A study of Mus musculus with 6 samples.

Results

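The genes described here are 10 core parts of the transforming growth factor beta (TGF-beta) pathway: the ligands Tgfb1 and Tgfb3, the receptors Tgfbr1, Tgfbr2 and Tgfbr3, the signal carriers Smad2 and Smad3, the inhibitory Smad7, and the corepressors Ski and Skil. They were chosen by symbol, with the best-covered RefSeq row standing for each gene, and all 10 of the 16911 gene symbols in the table were found and had enough counts to be tested. RNA was sequenced from sorted naive CD4 T cells of C57BL/6 mice, in 3 libraries from TRIM28 knockout mice (KO1 to KO3) and 3 from wild-type littermates (WT1 to WT3). Every library title also carries the label D0. The labels give neither the promoter that deletes Trim28, nor the deleted part of the gene, nor the age of the mice, nor whether each library came from a separate mouse, so the p-values speak for the spread among these libraries alone. Values are normalized read counts, and depth ran from 22005759 to 44372701 reads per library.

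TGF-beta ligands are secreted in a latent form and have to be released before they act. The released dimer is bound by the type II receptor Tgfbr2, which phosphorylates the type I receptor Tgfbr1, which in turn phosphorylates Smad2 and Smad3. These join Smad4 and act on genes in the nucleus, while Smad7, Ski and Skil restrain the signal. In T cells the pathway is known for holding naive cells quiescent and for the differentiation of regulatory and type 17 T cells.

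The libraries fitted their labels for the targeted gene. Trim28 averaged 871 normalized reads in knockout cells and 8715 in wild-type cells, or 9.99% of the wild-type level, with KO3 the highest of the knockout libraries at 1247. All 12 markers of naive CD4 T cells were detected in every library, Cd4 among them. KO3 stood apart in markers of other cells: 12 B cell markers summed to 6872 in KO3, against 464 and 383 in KO1 and KO2 and 340 to 1143 in the wild-type libraries, and the CD8 T cell and NK cell marker sums were also highest in KO3. WT1 and KO2 carried Y-linked transcripts and the other 4 libraries had almost none. Transcript length separated the libraries as well. Over 8734 rows with a mean of at least 100, the deviation of a library from the mean of all libraries was correlated with transcript length, at 0.42 for KO1, 0.21 for KO2 and -0.25 for KO3, against -0.31 for WT1, -0.00055 for WT2 and -0.21 for WT3 (Spearman coefficients across rows, which are not independent replicates).

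Of the 10 genes, Tgfb3 rose in the knockout and the other 9 did not pass the test. The test was limma on log2 of the normalized count plus 1, with Benjamini-Hochberg adjustment over 13022 rows and a threshold of 0.05. Among all tested rows, 1.51% passed in either direction, 1.19% as higher in the knockout. Knockout and wild-type values did not overlap in Tgfb3 and Skil, 2 of the 10 genes, and in 18.8% of all tested rows. The median log2 fold change of the 10 genes was 0.012, beside 0.0019 over all tested rows.

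**Figure D1:**
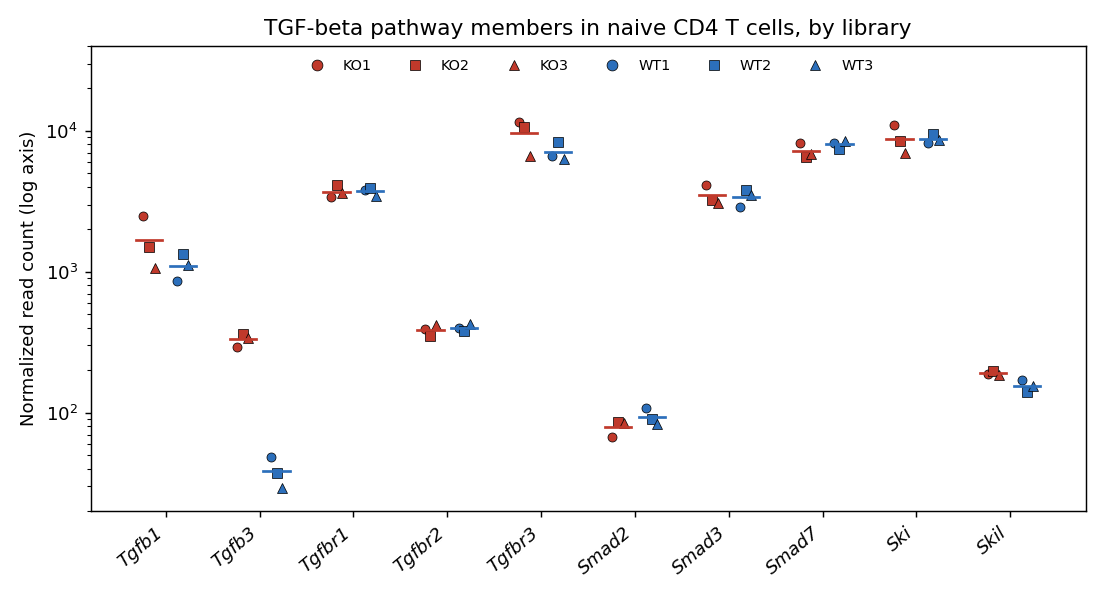
Normalized read counts (log axis) of the 10 genes in each library, with knockout libraries in red to the left of wild-type libraries in blue and a bar at each group mean. Tgfb3 is the gene whose groups are far apart, with 295 to 361 reads in the knockout and 29.4 to 48.8 in the wild type, and Tgfb1, Tgfbr3 and Ski spread widely among the knockout libraries.

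Tgfb3 is a secreted ligand best known from palate and lung development, and in mouse T cells from inflammatory type 17 cells. The gene lies at chr12:86056743-86079041 (mm10). Its normalized count was 295, 361 and 337 in KO1, KO2 and KO3, against 48.8, 37.4 and 29.4 in WT1, WT2 and WT3. Every knockout library lay well above every wild-type library, and the knockout values were even, with a coefficient of variation of 10.2% against 25.4% in the wild type. Tgfb3 averaged 331 ± 33.7 in knockout cells and 38.5 ± 9.77 in wild-type cells (SD, n = 3 per group), a ratio of 8.60. The log2 fold change was 3.10 (SE 0.22, 95% interval 2.60 to 3.59, limma adjusted p 0.000179). An exact two-sided permutation test over the libraries gave p = 0.1, the smallest that 3 against 3 allow. The values rest on 1084 reads over the knockout libraries and 107 over the wild-type libraries. KO3, with its high marker sums for other cells, lay between the other knockout libraries for Tgfb3, and without it the log2 fold change was 3.08 (limma adjusted p 0.000101). In RNA from sorted populations, more RNA per cell and more cells that carry it cannot be told apart.

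Tgfb3 and Tgfb1 encode closely related proteins, so a stretch of both coding sequences is set side by side here. The stretches below are the last 300 bases of each coding sequence, stop codon included, from the part that encodes the secreted growth factor, read from the GENCODE M21 transcript matched to each RefSeq row. Tgfb3 lies on the minus strand at chr12:86057780-86059040 and Tgfb1 on the plus strand at chr7:25704138-25704942 (mm10), in both genes across coding exons 6 and 7 of 7. Capitals mark the positions at which the sequences differ.
Tgfb3: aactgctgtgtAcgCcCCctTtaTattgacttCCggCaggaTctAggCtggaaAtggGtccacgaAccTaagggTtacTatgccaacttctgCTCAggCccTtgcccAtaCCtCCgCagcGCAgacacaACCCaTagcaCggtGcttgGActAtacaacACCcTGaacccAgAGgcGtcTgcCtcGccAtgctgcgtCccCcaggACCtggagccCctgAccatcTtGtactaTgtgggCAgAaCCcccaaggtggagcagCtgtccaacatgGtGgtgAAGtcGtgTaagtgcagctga
Tgfb1: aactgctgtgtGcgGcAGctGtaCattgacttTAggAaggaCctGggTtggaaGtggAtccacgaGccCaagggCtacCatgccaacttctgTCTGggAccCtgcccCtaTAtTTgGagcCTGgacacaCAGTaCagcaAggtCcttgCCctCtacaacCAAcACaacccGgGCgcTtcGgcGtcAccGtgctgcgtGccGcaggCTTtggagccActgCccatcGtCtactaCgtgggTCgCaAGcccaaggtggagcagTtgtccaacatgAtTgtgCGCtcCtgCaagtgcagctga
Set side by side without gaps, 221 of the 300 positions (73.7%) were identical and 79 differed, and the longest unbroken identical stretch was 15 bases. Over the whole transcripts the longest run shared by Tgfb3 and Tgfb1 was also 15 bases, as was that shared by Tgfb3 and Tgfb2, which is short beside the sequenced read length of 100 bases. How reads were assigned to these genes was not tested.

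Tgfb1, the main TGF-beta ligand of immune cells (chr7:25687002-25705077), had 2479.6, 1498 and 1068 normalized reads in KO1, KO2 and KO3, against 859, 1333 and 1111 in WT1, WT2 and WT3. The groups overlapped, KO1 was the highest library, and KO3 lay below WT2 and WT3. Tgfb1 averaged 1682 ± 724 in knockout cells and 1101 ± 237 in wild-type cells (SD, n = 3 per group), and the log2 fold change of 0.55 did not pass (SE 0.28, 95% interval -0.10 to 1.19, limma adjusted p 0.483). Without KO1 it was 0.22 and without KO3 it was 0.83, neither of which passed. Tgfb2, the remaining ligand, was barely detected, at means of 11.4 in knockout and 11.2 in wild-type cells.

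Divided by transcript length, Tgfb1 remained the most abundant ligand in all 6 libraries. Its level was 1140.1, 689 and 491 normalized reads per kilobase in KO1, KO2 and KO3, against 395, 613 and 511 in WT1, WT2 and WT3, while Tgfb3 stood at 87.2, 107 and 99.7 in the knockout and at 14.4, 11.1 and 8.68 in the wild type. Tgfb1 exceeded Tgfb3 by 4.93 to 13.1 times in the knockout libraries and by 27.4 to 58.9 times in the wild-type libraries. Tgfb3 made up 7.09%, 13.4% and 16.8% of the summed ligand level per kilobase in KO1, KO2 and KO3, against 3.50%, 1.77% and 1.66% in WT1, WT2 and WT3. The knockout share was above the wild-type share in every library (means 12.4 ± 4.93% and 2.31 ± 1.03%, SD, n = 3 per group; exact two-sided permutation p = 0.1, the smallest possible). The summed ligand level was 873 ± 325 per kilobase in the knockout and 520 ± 106 in the wild type, with overlapping libraries (exact permutation p = 0.2).

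**Figure D2:**
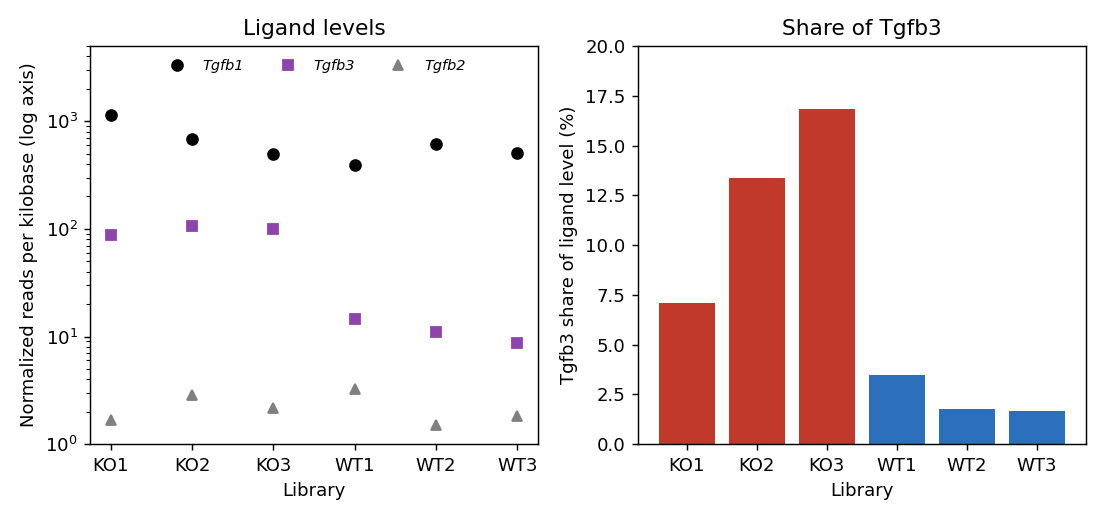
Left, ligand levels in normalized reads per kilobase (log axis) by library, and right, Tgfb3 as a percentage of the summed level of the 3 ligands, knockout in red and wild type in blue. Tgfb1 is above Tgfb3 in each library, and the Tgfb3 share is 7.09% or more in each knockout library and 3.50% or less in each wild-type library.

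No tested gene next to Tgfb3 passed the test. The 3 nearest genes with a row on each side were examined, whatever their values. Ttll5, a tubulin glutamylase gene that ends 2.98 kb from Tgfb3, averaged 861 in knockout cells and 878 in wild-type cells, a log2 fold change of -0.03 (95% interval -0.30 to 0.24). Erg28 (which overlaps Ttll5 at one end), Flvcr2 and Gpatch2l, at 163 to 243 kb, had log2 fold changes of -0.16, 0.04 and 0.13, and none passed in limma (adjusted p 0.578 to 0.978 over the 4 tested neighbours). The remaining neighbours, Ift43 and Gm805, had no more than 1 read in any library and were not tested. Over all 10 genes, 40 neighbours were tested, Smad2 and Smad7 among them as each other's neighbours, and none was called in limma, beside 1.51% of all tested rows. Before adjustment 2 of the 40 had a p below 0.05 (12.7% of all tested rows did), Prkcz and Gabrd, both next to Ski. Gabrd had the largest difference among the 40, at means of 19.7 in knockout and 4.34 in wild-type cells (log2 fold change 2.13, limma adjusted p 0.207). Without KO3, Zmat3 next to Skil was called, at 1.11 (limma adjusted p 0.0333), beside 4.32% of all tested rows. It had 1716, 1281 and 585 in KO1, KO2 and KO3, against 540, 1022 and 589 in WT1, WT2 and WT3, and the groups overlapped.

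**Figure D3:**
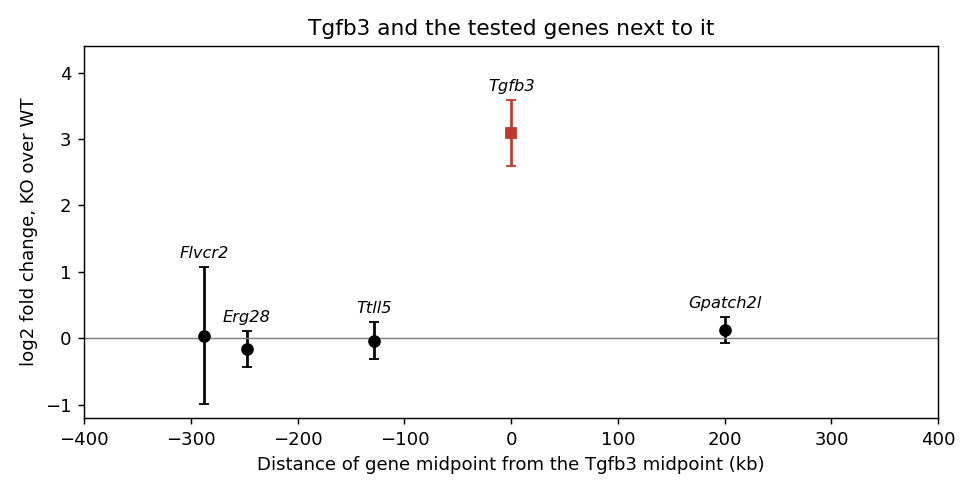
Log2 fold change of knockout over wild type with its 95% interval for Tgfb3 (red square) and the 4 tested genes nearest to it (black circles), placed by the distance between gene midpoints in kilobases. Tgfb3 stands at 3.10, and the 4 neighbours lie between -0.16 and 0.13 with intervals that include 0.

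The rows whose log2 values over the 6 libraries were most like those of Tgfb3, among 10147 rows with a mean of at least 50, were Tdrd9 (Pearson r 0.995), Vmn2r97, Ttyh2, Icosl and Gmds (0.994 each). With 6 libraries in 2 groups, such a coefficient mostly reflects the difference between the groups, and 10 rows exceeded 0.99. Tdrd9, an RNA helicase of the germline, averaged 4856 in knockout cells and 1.20 in wild-type cells. Icosl, the ligand of the costimulatory receptor Icos, averaged 710 in knockout cells and 274 in wild-type cells (log2 fold change 1.37). Gmds, an enzyme of fucose metabolism, was not called (391 and 288 in the group means, limma adjusted p 0.136).

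The type I and type II receptors, which carry the signal, did not pass the test. Tgfbr1 had 3373, 4112 and 3637 normalized reads in KO1, KO2 and KO3, against 3793, 3903 and 3464 in WT1, WT2 and WT3. The groups overlapped, and the log2 fold change was -0.01 (95% interval -0.24 to 0.22, limma adjusted p 0.982). Tgfbr2 had 395, 353 and 421 in the knockout libraries, against 396, 382 and 426 in the wild-type libraries. Its groups overlapped as well, with a log2 fold change of -0.04 (95% interval -0.32 to 0.23, limma adjusted p 0.909). Values this near 0 turned sign in some of the other settings.

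Tgfbr3, also called betaglycan, is a co-receptor that presents ligand to the signalling receptors (chr5:107106567-107289629, mm10). It had 11578, 10613 and 6598 normalized reads in KO1, KO2 and KO3, against 6576, 8375 and 6305 in WT1, WT2 and WT3. KO1 and KO2 lay above every wild-type library, whereas KO3 lay within the wild-type range. Tgfbr3 averaged 9596 ± 2641 in knockout cells and 7086 ± 1125 in wild-type cells (SD, n = 3 per group), and the log2 fold change of 0.41 did not pass (SE 0.21, 95% interval -0.06 to 0.88, limma adjusted p 0.471). Without KO3 it was 0.66 and passed (limma adjusted p 0.0203), in a fit that called 4.32% of all tested rows.

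The levels of Tgfb1 and Tgfbr3 ran along with the transcript length trend of the libraries (Pearson r 0.97 and 0.98 over 6 libraries). Their own transcripts are of unlike length, at 2175 bases for Tgfb1, the shortest of the 10 genes, and 6087 for Tgfbr3. The longest, Tgfbr2 and Smad2 at 8092 and 8089 bases, had coefficients of -0.56 and -0.73, and the remaining genes lay between -0.16 and 0.74. Relative to the mean of all 6 libraries, Tgfbr3 stood at 0.52, 0.39 and -0.30 on the log2 scale in KO1, KO2 and KO3, against -0.30, 0.05 and -0.36 in WT1, WT2 and WT3, and for Tgfb1 the values were 0.92, 0.19 and -0.29 in the knockout, against -0.61, 0.03 and -0.24 in the wild type. For both genes KO1, KO2 and WT2 were the highest libraries, in that order, which are also the 3 with the highest length trend. With that trend as a covariate, an alternative chosen after the data were seen, the log2 fold change was 0.03 for Tgfbr3 (95% interval -0.19 to 0.25) and 0.02 for Tgfb1 (95% interval -0.28 to 0.33), and that of Tgfb3 was 3.19 (limma adjusted p 0.000148). That fit called 2.99% of all tested rows, 2.43% as higher and 0.553% as lower in the knockout. The trend was highest in KO1 and KO2, so the fit cannot fully tell it apart from genotype. The part of transcript length in these values was not tested. With the B cell marker sum as the covariate Tgfbr3 was called, at 0.50 (limma adjusted p 0.00465), as were 6.4% of all tested rows, 4% as higher and 2.4% as lower in the knockout.

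**Figure D4:**
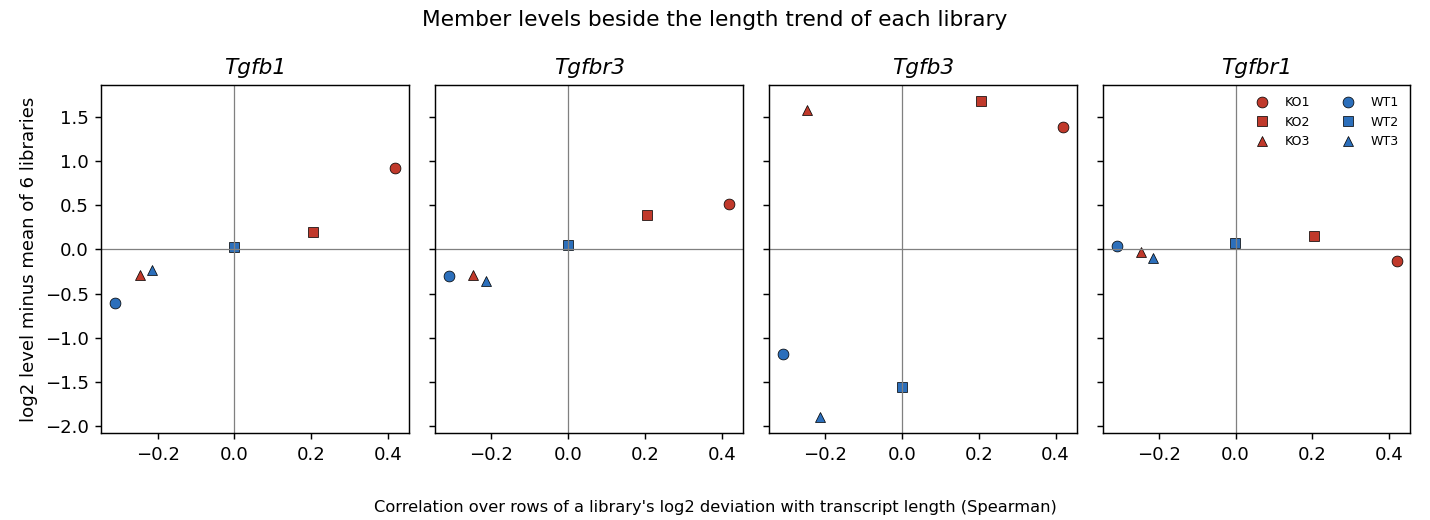
Log2 level of 4 genes minus the mean of the 6 libraries, against the Spearman correlation over rows of each library's deviation with transcript length, knockout in red and wild type in blue. Tgfb1 and Tgfbr3 climb with the length trend across both groups, Tgfb3 splits by genotype with KO3 at 1.58, and Tgfbr1 stays between -0.14 and 0.15.

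Neither signal-carrying Smad passed. Smad3, the receptor-activated Smad with direct DNA binding, had 4107, 3239 and 3083 normalized reads in KO1, KO2 and KO3, against 2884, 3785 and 3514 in WT1, WT2 and WT3. The groups overlapped, with the highest value in KO1, the lowest in WT1, and a log2 fold change of 0.03 (95% interval -0.29 to 0.35, limma adjusted p 0.945). Smad2, its close relative, had 67.8, 86.0 and 84.5 in the knockout libraries, against 107, 90.2 and 82.6 in the wild-type libraries. These groups overlapped too, and the log2 fold change was -0.23 (95% interval -0.69 to 0.23, limma adjusted p 0.686). A further Smad2 row averaged 8.42 in knockout and 7.73 in wild-type cells and was below the minimum for testing. Smad2 and Smad3 transcripts share no run longer than 23 bases. Smad4, the common partner of both, averaged 8095 in knockout and 8247 in wild-type cells (limma adjusted p 0.928). Smad5, of the BMP branch, averaged 40.3 in knockout and 67.3 in wild-type cells, with no overlap but no call (limma adjusted p 0.336).

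The inhibitors were abundant in both groups. Smad7, which blocks the type I receptor and is itself induced by TGF-beta, had 8154, 6539 and 6898 normalized reads in KO1, KO2 and KO3, against 8202, 7431 and 8432 in WT1, WT2 and WT3. KO1 lay within the wild-type range and the other knockout libraries below it, and the log2 fold change was -0.16 (SE 0.11, 95% interval -0.40 to 0.08, limma adjusted p 0.581). Ski, a corepressor that binds Smad complexes, had 10933, 8409.8 and 6944 in the knockout libraries, against 8249, 9498 and 8640.2 in the wild-type libraries. The knockout libraries spanned a wider range than the wild-type ones, with a coefficient of variation of 23.0% against 7.26%, and the log2 fold change was -0.03 (95% interval -0.38 to 0.32, limma adjusted p 0.959).

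Skil, the relative of Ski also known as SnoN and a gene that TGF-beta induces, was slightly higher in every knockout library without passing. At chr3:31095058-31122923 (mm10), it had 189, 198 and 185 normalized reads in KO1, KO2 and KO3, against 171.5, 141 and 154 in WT1, WT2 and WT3. All knockout values lay above all wild-type values, at 191 ± 6.77 and 155 ± 15.4 (SD, n = 3 per group). The log2 fold change of 0.30 did not pass (SE 0.15, 95% interval -0.03 to 0.63, limma adjusted p 0.457).

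**Figure D5:**
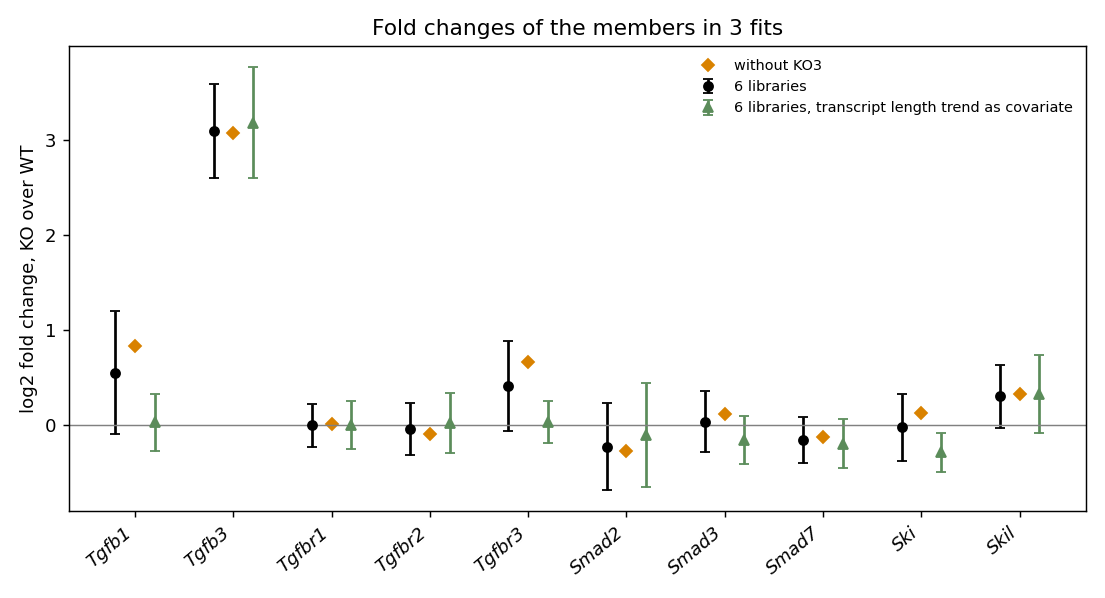
Log2 fold change of knockout over wild type for the 10 genes, with 95% intervals, over all 6 libraries (black circles), without KO3 (orange diamonds, no interval drawn) and with the transcript length trend as a covariate (green triangles). Tgfb3 lies between 3.08 and 3.19 in the 3 fits, and Tgfb1 and Tgfbr3 lie at 0.55 and 0.41, 0.83 and 0.66, and 0.02 and 0.03 in that order of fits.

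Ordered by normalized reads per kilobase, Tgfb3 was seventh of the 10 genes in knockout cells and last in wild-type cells. In knockout cells Smad7 (1682), Ski (1587), Tgfbr3 (1577), Tgfb1 (773), Smad3 (683) and Tgfbr1 (644) led, and each overlapped the next over the libraries, followed by Tgfb3 (97.9), Tgfbr2 (48.1), Skil (28.4) and Smad2 (9.82), which did not overlap. In wild-type cells Smad7 (1875), Ski (1593) and Tgfbr3 (1164) did not overlap each other, and Smad3 (667), Tgfbr1 (646) and Tgfb1 (506) overlapped from one to the next. Below them Tgfbr2 (49.6) and Skil (23.1) stood apart, and Smad2 (11.5) and Tgfb3 (11.4) overlapped. Levels of genes with several RefSeq transcripts are uncertain, since the sources used here do not say to which transcript shared reads were assigned: Tgfbr1, Smad2 and Skil have 3 transcripts in the RefSeq gene table and Tgfbr2 and Ski 2, of which 1 has a row, or 2 for Smad2.

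Around these 10 genes, 95 other genes of the wider pathway had a row, drawn from 13 lists of ligand holders, activin and BMP receptors and ligands, further Smads, regulators, partners and target genes. Of the 78 tested, 3 rose, none fell and 75 did not pass in limma, beside 1.19% of all tested rows called as higher and 0.315% as lower. Before adjustment 15 had a p below 0.05 (12.7% of all tested rows did). The median log2 fold change of the 78 was 0.08, beside 0.0019 over all tested rows. The groups lay apart in 15 of the 78 (19.2%), beside 18.8% of all tested rows. The 3 that rose were Nrp1, Bmp7 and Usp11.

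Among the proteins that hold or activate latent ligand, Nrp1 rose and the other 9 tested did not pass (1.19% of all tested rows were called as higher). Nrp1, a semaphorin co-receptor that also binds latent TGF-beta, averaged 4496 ± 333 in knockout cells and 370 ± 32.6 in wild-type cells (SD, 3 libraries each), a difference of 3.602 on the log2 scale (SE 0.11, limma adjusted p 1.42e-06). Lrrc32, which tethers latent TGF-beta on regulatory T cells, had 116, 43.7 and 275 in KO1, KO2 and KO3, against 26.5, 20.9 and 27.8 in WT1, WT2 and WT3. The groups lay apart but the knockout values were uneven, and Lrrc32 did not pass (log2 fold change 2.13, SE 0.57, limma adjusted p 0.151). Without KO3 it stood at 1.48 and did not pass (limma adjusted p 0.0723). It passed with the length covariate (2.80), with the B cell covariate (1.91) and without KO2 (2.80), and in no other alternative. Itgb8, a subunit of an integrin that releases latent TGF-beta, had 10.7, 16.0 and 84.5 in the knockout libraries and 12.4 to 15.4 in the wild-type libraries, so that it was high in KO3 and level with the wild type in KO1 and KO2. The 8 markers of regulatory T cells, Lrrc32 among them, summed to 3214, 3244 and 6176 in KO1, KO2 and KO3, against 2661 to 2671 in the wild-type libraries. Il2ra, the interleukin-2 receptor alpha chain, was the called marker among the 7 tested, with 358, 373 and 714 in KO1, KO2 and KO3, against 172, 151 and 188 in WT1, WT2 and WT3 (log2 fold change 1.43, limma adjusted p 0.0326), and it passed without KO3 at 1.11. Ctla4 and Tnfrsf18 lay apart upward without passing. Gpr83, Ikzf2 and Itgae overlapped between the groups, with Ikzf2 and Itgae above the wild-type range in KO3 alone. Foxp3, the defining factor of these cells, had 11.4, 7.29 and 2.39 normalized reads in KO1, KO2 and KO3. In WT1, WT2 and WT3 Foxp3 had 6.97, 9.90 and 9.27, and it was not tested. The part of those cells in Lrrc32 and Itgb8 was not tested. Nrros, which holds latent TGF-beta on myeloid cells, averaged 4035 ± 283 in knockout cells and 5315 ± 371 in wild-type cells without passing (limma adjusted p 0.0997). Nrros passed without KO3 at -0.45 and with the B cell covariate at -0.42.

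In the activin and BMP branches of the family, Bmp7 rose. This bone morphogenetic protein had 140, 131 and 218 normalized reads in KO1, KO2 and KO3, against 37.6, 36.3 and 51.8 in WT1, WT2 and WT3, which is 1.92 on the log2 scale (SE 0.26, limma adjusted p 0.00709). All knockout values were above all wild-type values. Of its tested neighbours, Rbm38, an RNA-binding protein gene 81.6 kb away, also rose, averaging 7753 in knockout cells and 3967 in wild-type cells (log2 fold change 0.96, limma adjusted p 0.00890), and Rae1, which lies between them, did not pass (0.11). The receptor Bmpr2 averaged 992 ± 166 in knockout and 683 ± 47.6 in wild-type cells (limma adjusted p 0.142). Bmpr2 passed without KO3 at 0.65 and with the B cell covariate at 0.57. The ligand Gdf11 averaged 249 ± 12.9 in knockout and 344 ± 31.9 in wild-type cells without passing (limma adjusted p 0.171). Limma called none of the 5 tested activin and BMP receptors (1.51% of all tested rows were called). Before adjustment 12.7% of all tested rows, and Bmpr2 among the 5 receptors, had a p below 0.05. Acvr1b, a type I activin receptor and the most abundant of them, averaged 2130 in knockout and 2155 in wild-type cells, and Acvrl1, a type I receptor of BMP ligands, 30.7 and 46.8, with no overlap but no call (limma adjusted p 0.417).

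Of 12 tested ubiquitin and phosphatase regulators, Usp11 rose and 11 did not pass (1.19% of all tested rows were called as higher). Usp11, a deubiquitinase that acts on the type I receptor, averaged 809 ± 134 in knockout cells and 487 ± 31.96 in wild-type cells (SD, 3 libraries each), or 0.72 on the log2 scale (SE 0.14, limma adjusted p 0.0423). Leaving out any 1 library other than KO3 ended the call, at limma adjusted p of 0.0684 to 0.233, and so did upper quartile scaling (0.115), fitting without the trend (0.136), voom weights (0.0911) and the Y-linked covariate (0.0506), 9 of 20 alternatives in all. Stub1, a ubiquitin ligase, averaged 700 in knockout and 890 in wild-type cells without passing (limma adjusted p 0.206), and the deubiquitinase Usp9x, the most abundant of the list, 21391 and 19090. Among the 7 tested receptors and co-receptors, which include the 3 described above, Ldlrad4, a membrane protein that restrains TGF-beta signalling, averaged 1563 ± 112 in knockout and 1019 ± 204 in wild-type cells (limma adjusted p 0.0894). Ldlrad4 passed without KO3 at 0.69, without WT2 at 0.79 and with the B cell covariate at 0.67.

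Genes known to respond to TGF-beta in T cells held no call in limma with all libraries and no covariate, beside 1.51% of all tested rows. Of 12 tested genes that the pathway induces, 7 were higher and 5 lower in the knockout. Before adjustment 2 had a p below 0.05 (12.7% of all tested rows did), and the median log2 fold change was 0.12, or -0.05 without KO3. Pmepa1, a feedback inhibitor induced through Smads, averaged 322 ± 74.6 in knockout and 271 ± 5.02 in wild-type cells. Itgae, which encodes the integrin CD103, had 28.6, 24.8 and 259 in KO1, KO2 and KO3, against 18.1, 23.1 and 33.99 in WT1, WT2 and WT3, a difference carried by KO3. Of 14 tested genes that the pathway represses, 12 were higher and 2 lower in the knockout. Without KO3, Ifng, Gzmb, Eomes, Klrg1 and Id1 turned from higher to lower, Id2 and Cdc25a stayed lower, and the rest stayed higher. Of these 14, 3 had a p below 0.05 before adjustment (12.7% of all tested rows did), and the median was 0.26, or 0.07 without KO3. Gzma and Il2rb, of cytotoxic and interleukin-2-responsive cells, averaged 327 and 3092 in the knockout and 140 and 1552 in the wild type. Both were highest in KO3, but KO1 and KO2 also lay above every wild-type library. In KO1 and KO2 Gzma had 203 and 233, against 135 to 146 in the wild type. Il2rb had 2579 and 1969, against 1301 to 1687. Without KO3 their log2 fold changes were 0.63 and 0.55, without passing (limma adjusted p 0.0673 and 0.0674). NK cell markers, of which Gzma is 1, summed to 2852 in KO3, against 844 and 960 in KO1 and KO2 and 1108 to 1194 in the wild-type libraries. With the length covariate 3 of the repressed genes were called as higher, Gzma (1.61), Il2rb (1.23) and Ifng (3.16), as was 1 induced gene, Ahr (0.82, limma adjusted p 0.0497). Ifng and Ahr were also highest in KO3, and without KO3 none of these 4 was called. With the B cell covariate, limma called 6.4% of all tested rows, 4% as higher and 2.4% as lower. Among the repressed genes these were Gzma (0.95), Il2rb (0.80) and Gata3 (0.51) as higher and Id2 (-0.39) as lower. Among the induced genes they were Ldlrad4 (0.67) as higher and Tgif1 (-0.71), Junb (-0.52) and Id3 (-0.47) as lower. The part of other cell types in these values was not tested.

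Without KO3, 10 genes of all pathway lists together were called as higher (2.76% of all tested rows were) and 4 as lower (1.55% were), among 88 tested. Besides Tgfb3, Nrp1, Bmp7 and Usp11, those called as higher were Tgfbr3, Itgav, Ldlrad4, Bmpr2, Tab2 and Gata3, at log2 fold changes of 0.42 to 0.73, and those called as lower were Nrros, Tgif1, Junb and Id2, at -0.92 to -0.45. Tgif1, a Smad corepressor, had 170, 140 and 306 in KO1, KO2 and KO3, against 289, 242 and 356 in WT1, WT2 and WT3. Its KO3 value lay within the wild-type range and those of KO1 and KO2 below it. Several abundant genes of the lists were not called: the Smad partner Sp1 averaged 16319 in knockout and 14621 in wild-type cells, the non-Smad branch genes Rhoa 12729 and 12660 and Tab1 1105 and 1228, and Stat4, which the pathway represses, 8172 and 7571. The coactivators Crebbp (14168 in knockout and 10013 in wild-type cells) and Ep300 (12433 and 9573) were not called either, and both were highest in KO1, as Tgfb1 and Tgfbr3 were.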

How the data were processed

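The authors deposited 1 table of 19048 rows named by RefSeq accession and 6 columns, on a log10 scale. STAR, HTSeq, DESeq2 and mm10 are named in the submitters' processing notes, without version or role. Turned back as 10 to the value minus 1, all 6 columns held whole multiples of a library-specific step (100% within 0.01), so the deposited log10 values are taken as log10(1 + reads scaled by library). Symbols came from the RefSeq gene table of GRCm38.p6 (18807 rows) and GENCODE M21 metadata (108 rows), and transcript lengths and sequences from GENCODE M21. The sources used here state neither how reads were counted nor whether strand was kept. Rows with a mean of at least 10 were fitted with limma 3.58.1 in R 4.3.3 on log2(count + 1), with the empirical Bayes trend and no covariate, and checked on simulated data. The simulated libraries held neither markers of other cells nor a length trend, so the check does not cover these features of the data. Fold changes on this scale understate changes of low genes.

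The members, lists and tests were chosen with earlier results of these data known. The rule for named genes took the members, the pathway genes called with all libraries or without KO3, in each list the 2 genes with the smallest p and the one with the highest mean, the neighbours of called members, and the 5 rows most like a called member. Genes named beyond that rule were chosen after their values were seen. Other settings were the pseudocount, filter, scaling, trend, voom weights on recovered reads, a replicate block, rows summed per gene, covariates and leaving out each library. Negative binomial count models were not run. Stimulated cells are not analysed here.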

Additional observations from a re-analysis of the deposited data

How the results depend on the processing

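Tgfb3 kept its direction and its call under all 20 alternatives, at log2 fold changes of 2.83 to 3.28 and adjusted p of 1.41e-05 to 0.00452, and no alternative called Tgfb1, Tgfbr1, Tgfbr2, Smad2, Smad3, Smad7, Ski or Skil. Over all rows, the 196 calls (79.1% higher) became 124 without the mean-variance trend, 833 with the B cell covariate (62.5% higher), 389 with the length covariate, and 114 to 562 when 1 library was left out, 562 being without KO3 (64.1% higher). The labels do not say whether same-numbered libraries are pairs. Deviations of same-numbered libraries from their group means were correlated at -0.31, 0.26 and 0.36. These coefficients cannot decide it, since the 3 deviations in a group sum to 0. With the replicate block 175 rows were called, Tgfb3 among them. Upper quartile scaling and voom weights moved the median log2 fold change of all rows up to 0.069 and 0.060, against 0.0019. The share of higher calls was 89.7% and 86.9% under these, 86.3% without the trend and 83.3% to 89.0% without a library other than KO3. Of the 10 genes, 2 were called without KO3 and with the B cell covariate, in fits that called 4.32% and 6.4% of all tested rows. When any other library was left out, 1 was called. All pathway lists together had 88 genes tested in the main fit, of which 4 were called (1.51% of all tested rows were). With the B cell covariate 21 were called (6.4% of all tested rows) and with the length covariate 9 (2.99%). Under upper quartile scaling, without the trend, with voom weights and with the Y-linked covariate 3 were called each, beside 174, 124, 153 and 169 of all rows. When a library was left out 3 to 14 were called, 14 being without KO3 (4.32% of all tested rows). Tgfbr3 was at 0.50 with the B cell covariate and 0.25 to 0.66 when a library was left out. Values near 0 turned sign. Tgfbr1 was at 0.059 under upper quartile scaling, 0.0041 under quantile normalization, 0.044 with voom weights, 0.0017 with the B cell covariate and -0.085 to 0.058 when a library was left out. Tgfbr2 was at 0.022 under upper quartile scaling, 0.018 with voom weights, 0.019 with the length covariate and -0.10 to 0.024 when a library was left out. Smad3 was at -0.16 with the length covariate and -0.094 to 0.12 when a library was left out. Ski was at 0.039 under upper quartile scaling, 0.029 with voom weights, 0.025 with the B cell covariate and -0.20 to 0.13 when a library was left out. Id2, at -0.30, was at 0.069 with the length covariate. The values of Tgfbr1, Tgfbr2 and Ski under upper quartile scaling and voom weights all lie below the medians of all rows in these settings. In the main fit they also lay below the median of all rows. Leaving out a library leaves fewer samples. The cause of the changes was not tested for any setting. The excess of Tgfb3 share in the knockout, 10.1 percentage points, was 7.93 to 12.8 when a library was left out. With 107 wild-type reads of Tgfb3, depth limits the precision of its wild-type level.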
